A study of Mus musculus with 16 samples.

Results

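A group of 10 genes of the extracellular matrix was followed in mouse hearts that had been placed under pressure overload, in animals labelled as wild type or as knockout of the long noncoding RNA Cardinal. They encode periostin (Postn), fibronectin (Fn1), the 5 thrombospondins (Thbs1, Thbs2, Thbs3, Thbs4 and Comp), tenascin-C (Tnc), SPARC (Sparc) and osteopontin (Spp1). The 10 genes were taken by name, with no threshold on a measured value, from 55487 genes in the count table. They were chosen with earlier results of these data known, so the shares of all genes given beside them are no test of the list. All 10 passed the filter on low counts that left 18275 genes for testing.

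Matricellular proteins are secreted into the matrix but mostly do not build its scaffold. They bind collagen, growth factors and cell surface receptors such as integrins, and so carry signals between the matrix and the cells that sit in it. In the adult heart most of them are kept low and are raised after injury or overload, chiefly in fibroblasts that have become activated. Fibronectin is also a structural protein of the provisional matrix and is grouped with them here.

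RNA came from the apex of the heart of 16 male mice, 4 in each of 4 groups, collected 4 weeks after surgery. The Ctrl sham and Ctrl TAC groups are labelled WT, and the KO sham and KO TAC groups as knockouts of Cardinal (Gm12295), whose deletion is not described as limited to a cell type. Transverse aortic constriction (TAC) ties the aorta against a needle that is then withdrawn, which leaves the vessel narrowed and the left ventricle under pressure. In sham surgery the vessel was exposed but not tied. The litter and age of each animal were not given with the libraries, and RNA of all cell types of the apex was measured together.

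Libraries held 53169437 to 79404714 counts. Levels are given as CPM, a gene's count scaled to a common library total after TMM normalization in edgeR. Cardinal stood at 3.25 to 3.86 CPM in Ctrl sham hearts, 2.69 to 8.02 CPM in Ctrl TAC hearts, 0.297 to 0.553 CPM in KO sham hearts and 0.276 to 0.371 CPM in KO TAC 1, 2 and 3. The library labelled KO TAC 4 held it at 4.54 CPM, a level of the Ctrl hearts. Values for KO TAC hearts include that library unless stated, and the main edgeR tests that use it were repeated without it. The DESeq2 fit, the median log2 fold changes of the members and the counts of groups that did not overlap were not. The animal numbers of Ctrl TAC 2, 3 and 4 and of the library labelled KO TAC 4 start with 25, and those of the other 12 libraries start with 3. What the numbers stand for was not given.

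The sequences shown first are those that several members share, or that differ between the thrombospondin that fell after TAC and one that rose. Arg-Gly-Asp is the tripeptide through which fibronectin and several matricellular proteins can be bound by integrins. In the longest complete coding sequence of each gene (GENCODE release M21, GRCm38), codons for it in frame were present in 6 of the 10 members, against 7.24% of 21530 genes with such a sequence. A match says only that the codons are there, and not that the site is exposed. Windows of 30 coding bases of the transcript strand are given below, from 9 bases before the codons, with the codons in capitals. Fn1 and Thbs4 each held 2 such sites, of which the site at codon 1614 of Fn1 and the site at codon 564 of Thbs4 are shown.
Fn1, exon 30, codons at chr1:71606746-71606754, minus strand: gtcactggcCGTGGGGACagtccagcaagc
Thbs1, exon 18, codons at chr2:118122882-118122890, plus strand: ggtgatggcCGAGGTGACgcctgcaaagac
Thbs2, exon 18, codons at chr17:14671484-14671492, minus strand: ggtgacggcCGAGGTGACatttgtaaagat
Thbs4, exon 13, codons at chr13:92762788-92762796, minus strand: ggggatgggAGAGGAGACgcctgtgatgac
Comp, exon 10, codons at chr8:70377220-70377228, plus strand: ctggatggcCGGGGCGATgcctgcgacgac
Spp1, exon 7, codons at chr5:104439481-104439489, plus strand: cccaacggcCGAGGTGATagcttggcttat

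Postn, Thbs3, Tnc and Sparc held no such codons in these coding sequences. The 5 thrombospondins are paralogs, but no 2 of them shared a stretch of 31 bases in their transcripts. Of all 45 pairs of members, 1 pair (Fn1 and Sparc) shared any such stretch.

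Promoters were taken from RefSeq (GRCm38.p6), where 7 of the 10 members had an entry, and cover 250 bases before and 50 bases after the start of the transcript. They were searched on both strands for CATTCC, which TEAD factors bind, for TGANTCA, which AP-1 factors bind, for TATAAA, the TATA box, and for the CArG box, which serum response factor binds. CATTCC was present in 14.7% of 32851 promoters of this length, TGANTCA in 7.81%, TATAAA in 13.6% and the CArG box in 1.63%. The promoters of Postn, Thbs4 and Thbs2 are printed with the matches in capitals, since Postn and Thbs4 were the members that rose most after TAC and Thbs2 was the member that fell.
Postn, chr3:54360857-54361156, plus strand: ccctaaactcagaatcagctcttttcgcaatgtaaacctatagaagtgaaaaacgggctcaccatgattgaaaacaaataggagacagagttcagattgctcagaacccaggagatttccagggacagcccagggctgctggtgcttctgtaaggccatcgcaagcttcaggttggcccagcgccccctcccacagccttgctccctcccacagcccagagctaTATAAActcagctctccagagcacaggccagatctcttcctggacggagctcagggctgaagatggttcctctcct
Thbs4, chr13:92794769-92795068, minus strand: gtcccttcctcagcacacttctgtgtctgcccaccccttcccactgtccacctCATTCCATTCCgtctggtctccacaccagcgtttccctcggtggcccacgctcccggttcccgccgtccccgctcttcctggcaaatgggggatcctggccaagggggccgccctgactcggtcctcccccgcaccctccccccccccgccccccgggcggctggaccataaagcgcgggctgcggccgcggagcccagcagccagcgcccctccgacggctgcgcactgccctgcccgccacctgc
Thbs2, chr17:14694213-14694512, minus strand: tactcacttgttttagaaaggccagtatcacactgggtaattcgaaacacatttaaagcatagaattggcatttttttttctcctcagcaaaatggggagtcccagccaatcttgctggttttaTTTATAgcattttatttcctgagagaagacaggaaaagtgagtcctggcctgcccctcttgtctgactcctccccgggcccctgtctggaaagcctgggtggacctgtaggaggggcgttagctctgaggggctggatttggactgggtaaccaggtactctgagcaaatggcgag

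The Postn promoter held a TATA box starting 26 bases before the transcript start. The Thbs4 promoter held 2 copies of CATTCC that overlap by 1 base, starting 197 and 192 bases before the start. In the Thbs2 promoter TATAAA was found on the opposite strand, 126 bases before the start, and none of these 3 windows held TGANTCA or a CArG box. Of the 7 members with an entry, TATAAA was also found for Tnc and Spp1, and CATTCC for none but Thbs4. The Sparc window, and a further window each for Postn and Spp1, did not contain the annotated start of the gene. Those windows held none of these motifs. The match is of letters alone, and binding of a factor was not measured.

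In unloaded hearts the members spanned a wide range of levels. Levels of different genes are compared as CPM per kilobase of annotated exon. Sparc, a collagen-binding glycoprotein also known as osteonectin, was the highest at 67.1 ± 5.62 CPM per kb (SD, n = 4) in Ctrl sham hearts. It was followed by Thbs2 at 3.89 ± 0.411, Fn1 at 3.86 ± 0.474 and Postn at 3.48 ± 0.765 CPM per kb, 3 neighbours whose ranges overlapped. Thbs3 and Thbs4 followed at 1.21 and 1.20 CPM per kb and also overlapped each other. Comp and Thbs1 came next at 0.678 and 0.582 CPM per kb, and Spp1 and Tnc were the lowest at 0.208 and 0.132 CPM per kb. In KO sham hearts the order was the same except that Fn1 stood before Thbs2, with overlapping ranges.

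After TAC the order had changed. Postn was second to Sparc in both genotypes, at 20.6 ± 5.94 CPM per kb in Ctrl TAC and 47.5 ± 5.74 CPM per kb in KO TAC hearts. Thbs4 was the third in both, at 7.85 ± 3.32 and 21.1 ± 1.35 CPM per kb, although in Ctrl TAC hearts its range overlapped that of Fn1. Thbs2 had moved to the seventh place in Ctrl TAC and the eighth in KO TAC hearts.

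**Figure D1:**
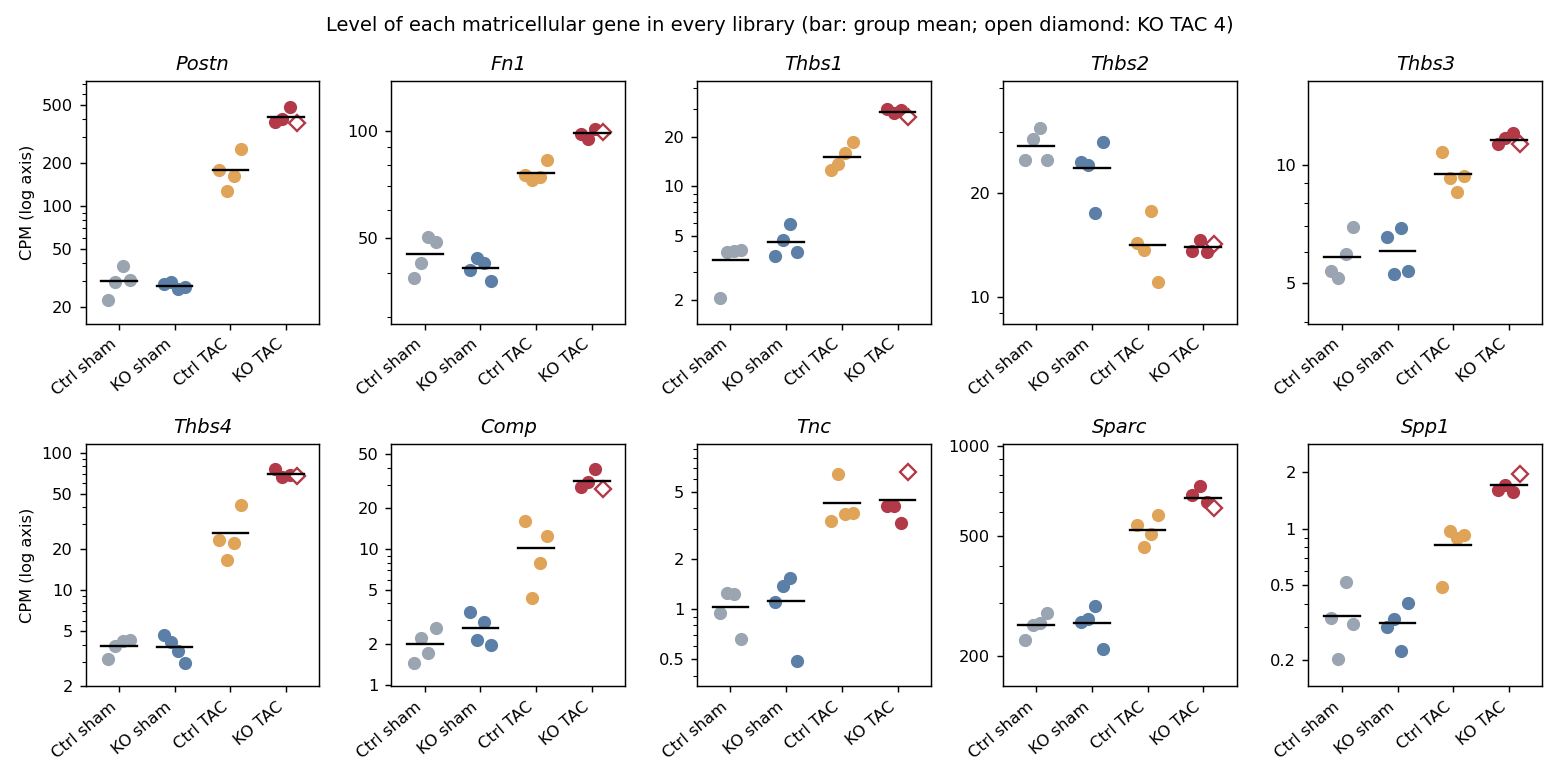
CPM of the 10 genes (log axis) in each of the 16 libraries by group; each point is 1 heart, bars are group means and the open diamond is the library labelled KO TAC 4. In 9 panels the TAC hearts sit above the sham hearts with the exception of Ctrl TAC 1 for Spp1, and in the Thbs2 panel the TAC hearts sit below the sham hearts of their genotype.

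The first comparison asked how the overload itself moved these genes in each genotype. In Ctrl hearts all 10 members passed the test (edgeR quasi-likelihood test, adjusted p under 0.05), against 20.0% of all genes tested, and 9 of them rose, against 10.4%. In KO hearts all 10 passed as well, against 34.3%, and 9 rose, against 17.8%. Thbs2 was the member that fell in both genotypes. The median log2 fold change of the 10 members was 1.66 in Ctrl and 2.22 in KO hearts, beside medians of 0.00 for all genes in each. Without the library labelled KO TAC 4, 10 members again passed in KO hearts. The groups did not overlap, with TAC higher, for 8 members in Ctrl hearts (10.5% of all genes) and for 9 in KO hearts (18.0%). In this bulk tissue, fewer or more cells of a type and less or more RNA per cell cannot be told apart.

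Postn (ENSMUSG00000027750, chr3:54361109-54391037) encodes periostin, a secreted fasciclin-domain protein that marks activated cardiac fibroblasts. It stood at 22.3, 29.5, 38.6 and 30.7 CPM in the Ctrl sham hearts and at 177, 127, 162 and 250 CPM in the Ctrl TAC hearts. In the KO sham hearts it stood at 28.9, 29.5, 26.4 and 27.3 CPM, and in the KO TAC hearts at 385, 403, 486 and 378 CPM. Every TAC heart was above every sham heart, and every KO TAC heart was above every Ctrl TAC heart. The rise after TAC was 5.91-fold in Ctrl hearts (log2 fold change 2.56 ± 0.19 (SE), edgeR adjusted p = 8.14e-07) and 14.7-fold in KO hearts (3.88 ± 0.20, adjusted p = 1.18e-08).

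Fn1 (ENSMUSG00000026193, chr1:71585520-71653200) encodes fibronectin, the scaffold of the provisional matrix onto which collagen is laid. It rose from 45.1 ± 5.53 to 76.3 ± 4.42 CPM in Ctrl hearts (SD, n = 4) and from 41.3 ± 2.68 to 98.5 ± 2.54 CPM in KO hearts. These were rises of 1.69-fold (adjusted p = 1.16e-06, edgeR) and 2.39-fold (adjusted p = 1.93e-09, edgeR), smaller in size than those of Postn but with little spread between hearts. The counts are per gene, so the spliced forms of fibronectin were not separated.

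Among the thrombospondins, Thbs1 and Thbs2 encode the members that assemble as trimers and inhibit the growth of blood vessels, and thrombospondin-1 also activates latent TGF-beta. Thbs1 (ENSMUSG00000040152, chr2:118111876-118127133) stood at 2.06, 3.97, 4.02 and 4.09 CPM in Ctrl sham hearts and at 12.6, 13.6, 15.9 and 18.7 CPM in Ctrl TAC hearts. In KO hearts it stood at 3.75, 4.69, 5.89 and 3.95 CPM after sham surgery and at 29.8, 28.1, 29.6 and 26.6 CPM after TAC. It rose 4.33-fold in Ctrl hearts (log2 fold change 2.12 ± 0.19, edgeR adjusted p = 2.32e-06) and 6.24-fold in KO hearts (2.64 ± 0.19, adjusted p = 7.26e-08), with no overlap between sham and TAC in either genotype.

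Thbs2 (ENSMUSG00000023885, chr17:14665500-14694235) moved the other way. It stood at 24.8, 28.6, 30.6 and 24.9 CPM in Ctrl sham hearts and at 14.4, 13.7, 17.7 and 11.1 CPM in Ctrl TAC hearts. In KO hearts it stood at 24.5, 24.0, 17.5 and 28.0 CPM after sham surgery and at 13.6, 14.6, 13.5 and 14.2 CPM after TAC. Every TAC heart was below every sham heart of its genotype. The log2 fold change fell by 0.94 in Ctrl hearts (SE 0.14, adjusted p = 0.000129, edgeR) and fell by 0.75 in KO hearts (SE 0.14, adjusted p = 0.000437, edgeR).

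Thbs3, Thbs4 and Comp encode the thrombospondins that assemble as pentamers. Thbs4 (ENSMUSG00000021702, chr13:92751590-92794818) is known as an injury-response thrombospondin of heart and skeletal muscle. It stood at 3.17, 3.95, 4.29 and 4.34 CPM in Ctrl sham hearts and at 23.1, 16.6, 22.0 and 41.7 CPM in Ctrl TAC hearts. In KO hearts it stood at 4.74, 4.22, 3.62 and 2.93 CPM after sham surgery and at 75.8, 66.0, 69.1 and 67.1 CPM after TAC. The lowest KO TAC heart was above the highest Ctrl TAC heart, and the TAC and sham hearts did not overlap. Its rises of 6.59-fold in Ctrl (log2 fold change 2.72 ± 0.25, edgeR adjusted p = 4.71e-06) and 17.9-fold in KO hearts (4.16 ± 0.26, adjusted p = 4.66e-08) had the largest fold changes of the 10 members in both genotypes.

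Comp (ENSMUSG00000031849, chr8:70373558-70382066), cartilage oligomeric matrix protein, binds collagen and is best known from cartilage and tendon. It stood at 1.45, 2.23, 1.74 and 2.62 CPM in Ctrl sham hearts and at 16.1, 4.42, 7.97 and 12.6 CPM in Ctrl TAC hearts, the widest relative spread of any member in this group. In KO hearts it stood at 3.45, 2.15, 2.93 and 1.99 CPM after sham surgery and at 28.8, 31.5, 39.1 and 27.9 CPM after TAC. It rose 5.14-fold (adjusted p = 0.000343, edgeR) and 12.1-fold (adjusted p = 3.55e-06, edgeR). Of 8 cartilage and bone markers 2 were expressed enough to be tested. Acan, the cartilage proteoglycan aggrecan, rose after TAC from 0.0259 to 0.313 CPM in Ctrl hearts (edgeR adjusted p = 0.00308) and from 0.0175 to 0.529 CPM in KO hearts (adjusted p = 0.00011), while Alpl, an alkaline phosphatase, did not pass in either genotype (adjusted p = 0.235 and 0.222, edgeR). The other 6 (Col2a1, Matn1, Matn3, Bglap, Ibsp and Sp7) had at most 14 counts in any library. Of 4 tendon markers 2 rose in both genotypes. Scx, a transcription factor of tendon cells, rose by log2 0.97 in Ctrl (adjusted p = 0.000719, edgeR) and 1.38 in KO hearts (adjusted p = 1.01e-05). Tnmd, tenomodulin, was at 0 in every Ctrl sham heart and at a mean of 0.268 CPM after TAC (adjusted p = 0.0131, edgeR), and at 0.0079 and 0.677 CPM in KO hearts (adjusted p = 0.00217). Mkx did not pass and Kera was at 0 in every library. Between the TAC groups 0 markers of either list passed (edgeR). With a term for the animal numbers that start with 25, the calls of Acan and Tnmd in Ctrl hearts were lost (adjusted p = 0.0535 and 0.1, edgeR). The part of these markers in the rise of Comp was not tested.

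Thbs3 (ENSMUSG00000028047, chr3:89215180-89226837), the least studied of the family, rose from 5.85 ± 0.795 to 9.50 ± 0.951 CPM in Ctrl hearts (adjusted p = 0.000129, edgeR) and from 6.05 ± 0.833 to 11.6 ± 0.352 CPM in KO hearts (adjusted p = 2.09e-06, edgeR). It shares 318 exon bases with Mtx1 on the opposite strand, whose mean level was 13.5 to 15.5 CPM in the 4 groups. Whether the strand was used in counting was not given, so reads of the shared bases cannot be assigned to either gene. Fn1, Thbs1 and Tnc also share 292, 208 and 176 exon bases with genes on the opposite strand. The mean levels of those genes were at most 0.0422 CPM in any group.

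Tnc (ENSMUSG00000028364, chr4:63959785-64047015) encodes tenascin-C, a large glycoprotein that is present in the embryonic heart and returns at sites of remodelling. It stood at 0.947, 1.25, 1.23 and 0.665 CPM in Ctrl sham hearts and at 3.36, 6.38, 3.71 and 3.76 CPM in Ctrl TAC hearts. In KO hearts it stood at 1.11, 1.36, 1.53 and 0.492 CPM after sham surgery and at 4.10, 4.12, 3.25 and 6.56 CPM after TAC. It rose 4.18-fold in Ctrl (adjusted p = 0.000214, edgeR) and 4.02-fold in KO hearts (adjusted p = 0.000112, edgeR), and the 2 TAC groups overlapped.

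Sparc (ENSMUSG00000018593, chr11:55394500-55423183) rose from 254 ± 21.3 to 526 ± 53.8 CPM in Ctrl hearts (2.07-fold, adjusted p = 6.43e-07, edgeR) and from 257 ± 33.8 to 672 ± 47.9 CPM in KO hearts (2.61-fold, adjusted p = 1.18e-08, edgeR). Spp1 (ENSMUSG00000029304, chr5:104435118-104441050) encodes osteopontin, a phosphoprotein made by macrophages and other cells. It shares 309 exon bases with Gm42793 on the same strand, whose mean level was 0.011 to 0.017 CPM in the 4 groups. Spp1 was the scarcest member by count, with 13 to 31 counts in the 8 sham libraries. It stood at 0.334, 0.203, 0.524 and 0.313 CPM in Ctrl sham hearts and at 0.493, 0.971, 0.897 and 0.933 CPM in Ctrl TAC hearts, where Ctrl TAC 1 was below the highest sham heart. In KO hearts it stood at 0.300, 0.332, 0.224 and 0.404 CPM after sham surgery and at 1.62, 1.71, 1.56 and 1.95 CPM after TAC, with no overlap. It rose 2.41-fold in Ctrl (adjusted p = 0.00255, edgeR) and 5.41-fold in KO hearts (adjusted p = 1.70e-06, edgeR). The call in Ctrl hearts was lost with a term for the animal numbers that start with 25 (log2 fold change 0.82, adjusted p = 0.118) and in the 12 libraries whose numbers start with 3 (0.52, adjusted p = 0.524), where Ctrl TAC 1 is the one Ctrl TAC heart left. The other 9 members kept their calls in Ctrl hearts under both.

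**Figure D2:**
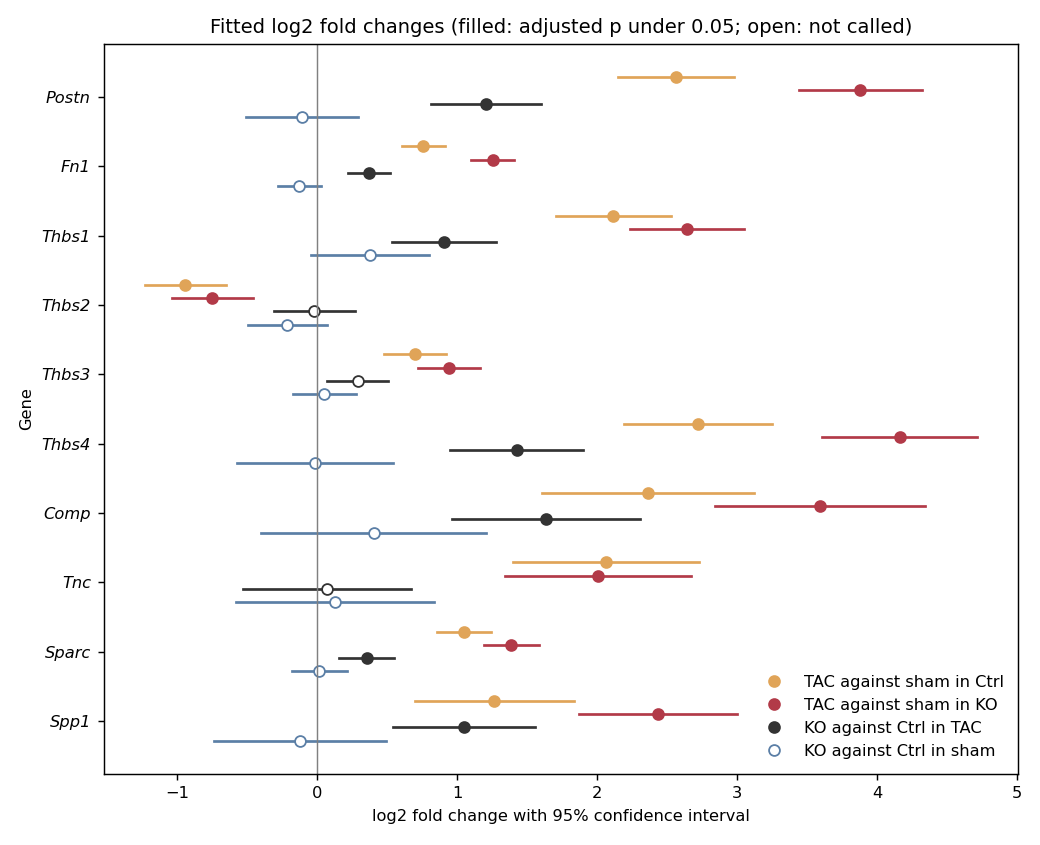
Log2 fold changes of the 10 genes (edgeR, all 16 libraries) with 95% confidence intervals for TAC against sham in each genotype and KO against Ctrl after each operation; filled points have an adjusted p under 0.05. The black points for KO against Ctrl after TAC are filled for 7 genes and lie between 0.35 and 1.63 there, and no point for KO against Ctrl after sham surgery is filled.

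The opposite movement of Thbs2 and Thbs4 changed the make-up of the thrombospondin transcripts. Summed per kilobase, the 5 genes stood at 7.56 ± 0.757 CPM per kb in Ctrl sham, 7.43 ± 0.463 in KO sham, 17.8 ± 4.57 in Ctrl TAC and 40.9 ± 2.19 in KO TAC hearts (SD, n = 4). Thbs2 made up 51.6% ± 4.38 of this sum in Ctrl sham and 45.1% ± 7.86 in KO sham hearts, and 12.1% ± 4.20 and 4.89% ± 0.433 after TAC. Thbs4 went from 15.8% ± 0.774 and 15.8% ± 2.60 in the sham groups to 43.0% ± 7.37 in Ctrl TAC and 51.6% ± 2.89 in KO TAC hearts. Comp went from 8.92% ± 1.90 and 11.9% ± 2.75 to 18.8% ± 7.19 and 26.1% ± 3.14. Every sham heart held more Thbs2 than Thbs4 per length, and every TAC heart held more Thbs4 than Thbs2. The shares of Thbs2 were 6.71% to 15.5% in Ctrl TAC and 4.42% to 5.27% in KO TAC hearts, while those of Thbs4 overlapped between the TAC groups (37.3% to 53.8% and 48.3% to 54.9%). In KO TAC 1, 2 and 3 alone the sum was 41.75 ± 1.83 CPM per kb (SD, n = 3), with shares of 4.77% for Thbs2, 51.2% for Thbs4 and 26.7% for Comp.

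**Figure D3:**
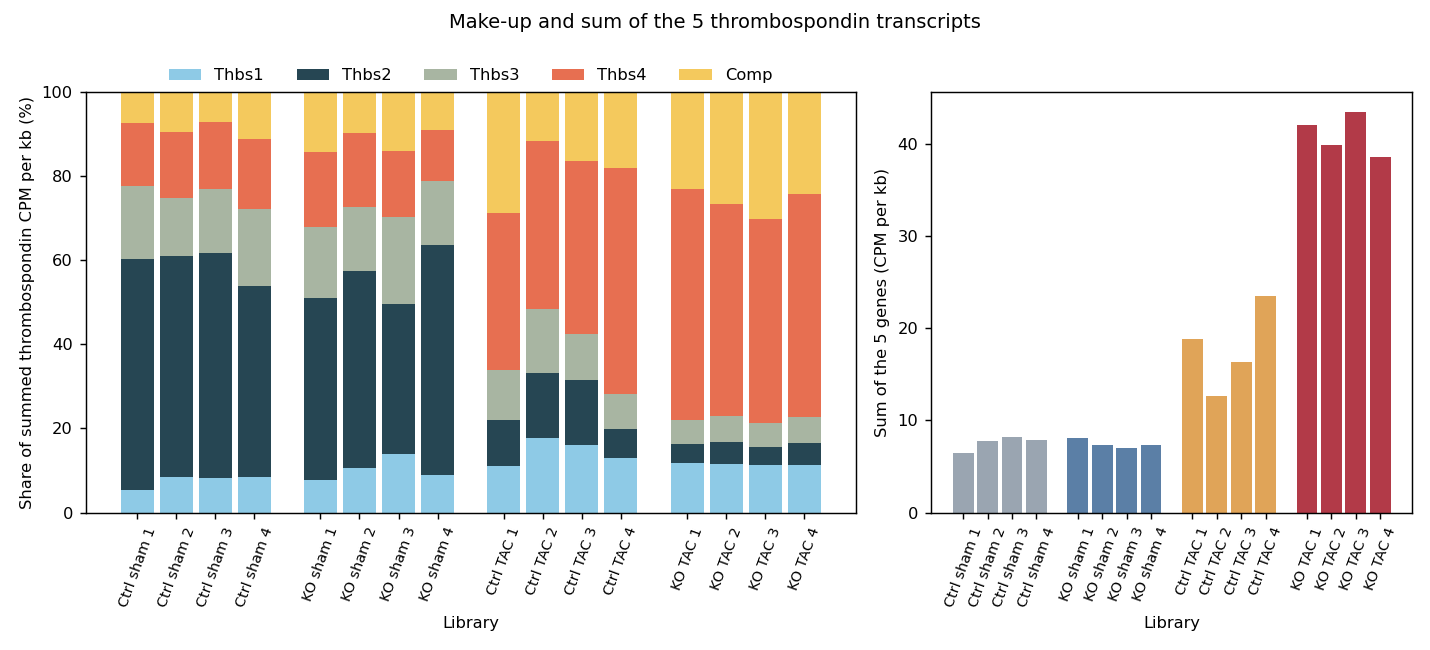
Left, the share of each thrombospondin (%) in the summed CPM per kilobase of the 5 genes in each library; right, that sum in CPM per kilobase. Thbs2 is the largest share in every sham library and Thbs4 in every TAC library, and the sums of the KO TAC libraries (38.5 to 43.5) lie above those of the Ctrl TAC libraries (12.7 to 23.5).

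The second comparison asked whether hearts labelled KO differed from Ctrl hearts after the same 4 weeks of TAC. The members that were higher in KO TAC hearts were Postn, Fn1, Thbs1, Thbs4, Comp, Sparc and Spp1, so 7 of 10 passed the test in one direction, against 2.68% of all genes in either direction and 1.36% upward. The groups did not overlap for these 7 and for Thbs3, 8 members in all, against 5.55% of all genes. The median log2 difference of the 10 members was 0.64, and it was 0.00 for all genes. No member was lower in KO TAC hearts by the test.

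The largest differences were those of Comp (log2 1.63 ± 0.31, 3.10-fold, edgeR adjusted p = 0.0194) and Thbs4 (1.43 ± 0.22, 2.69-fold, adjusted p = 0.0104). Postn was 2.31-fold higher (1.21 ± 0.18, adjusted p = 0.0102), Spp1 2.07-fold (1.05 ± 0.24, adjusted p = 0.0308) and Thbs1 1.87-fold (0.91 ± 0.18, adjusted p = 0.0183). Fn1 and Sparc differed least among those called, by 1.29-fold (0.37 ± 0.07, adjusted p = 0.0154) and 1.28-fold (0.35 ± 0.09, adjusted p = 0.0485).

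The other 3 members did not pass. Thbs3 differed by 0.29 on the log2 scale (95% confidence interval 0.07 to 0.51, edgeR adjusted p = 0.133), with Ctrl TAC hearts between 8.53 and 10.8 CPM and KO TAC hearts between 11.3 and 12.1 CPM. Tnc differed by 0.07 (interval -0.53 to 0.67, adjusted p = 0.931) and Thbs2 by -0.02 (interval -0.31 to 0.27, adjusted p = 0.964). The interval of Tnc includes differences as large as that of Fn1, so a difference of that size was not detectable for it.

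Without the library labelled KO TAC 4 the differences stayed close in size and 5 members passed. Postn was then at 425 ± 54.1 CPM (SD, n = 3) and Thbs4 at 70.3 ± 5.06 CPM in KO TAC hearts, with log2 differences of 1.25 (adjusted p = 0.0114, edgeR) and 1.44 (adjusted p = 0.0140). Fn1, Thbs1 and Comp also passed, while Sparc (0.39, adjusted p = 0.05003) and Spp1 (0.98, adjusted p = 0.0666) did not. That library stood above every Ctrl TAC heart for each of the 7. The 7 were called with it among the KO TAC hearts, so this order is no separate result.

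The animal numbers are nearly aligned with genotype among the TAC hearts, since 3 of 4 Ctrl TAC but 1 of 4 KO TAC animals have numbers starting with 25. With a term for these numbers, which is estimated from Ctrl TAC 1 and the library labelled KO TAC 4 against the rest of their groups, the log2 differences were 1.17 for Postn, 1.46 for Thbs4, 1.39 for Comp, 0.96 for Thbs1, 1.35 for Spp1, 0.38 for Fn1 and 0.30 for Sparc. The adjusted p values (edgeR) were then 0.0769 to 0.245 and 0 members passed. The share of all genes that passed with that term was not set beside this. That term also removed calls outside the members, from 3 to 0 among other matricellular genes and from 2 to 0 among cardiomyocyte markers. Whether the loss was particular to the members was not tested. Among animals with numbers starting with 3, the 3 KO TAC hearts were above Ctrl TAC 1 for 8 of the 10 members. Among those with numbers starting with 25, the library labelled KO TAC 4 was above the 3 Ctrl TAC hearts for 9 of the 10. That library held Cardinal at a level of the Ctrl hearts. Each of these counts sets 1 heart against 3, and the shares of all genes with such an order were not set beside them. The ratio of mean CPM, KO over Ctrl, was 2.40 for Postn and 3.04 for Thbs4 with numbers starting with 3. With numbers starting with 25 it was 2.105 and 2.51.

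Other single libraries also decided some calls. Postn and Thbs4 passed in all 16 fits that left out 1 library, Fn1, Thbs1 and Comp in 14, Spp1 in 9 and Sparc in 4. The number of members called was 3 without Ctrl TAC 2, 4 without Ctrl TAC 3 and 2 without KO TAC 3.

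**Figure D4:**
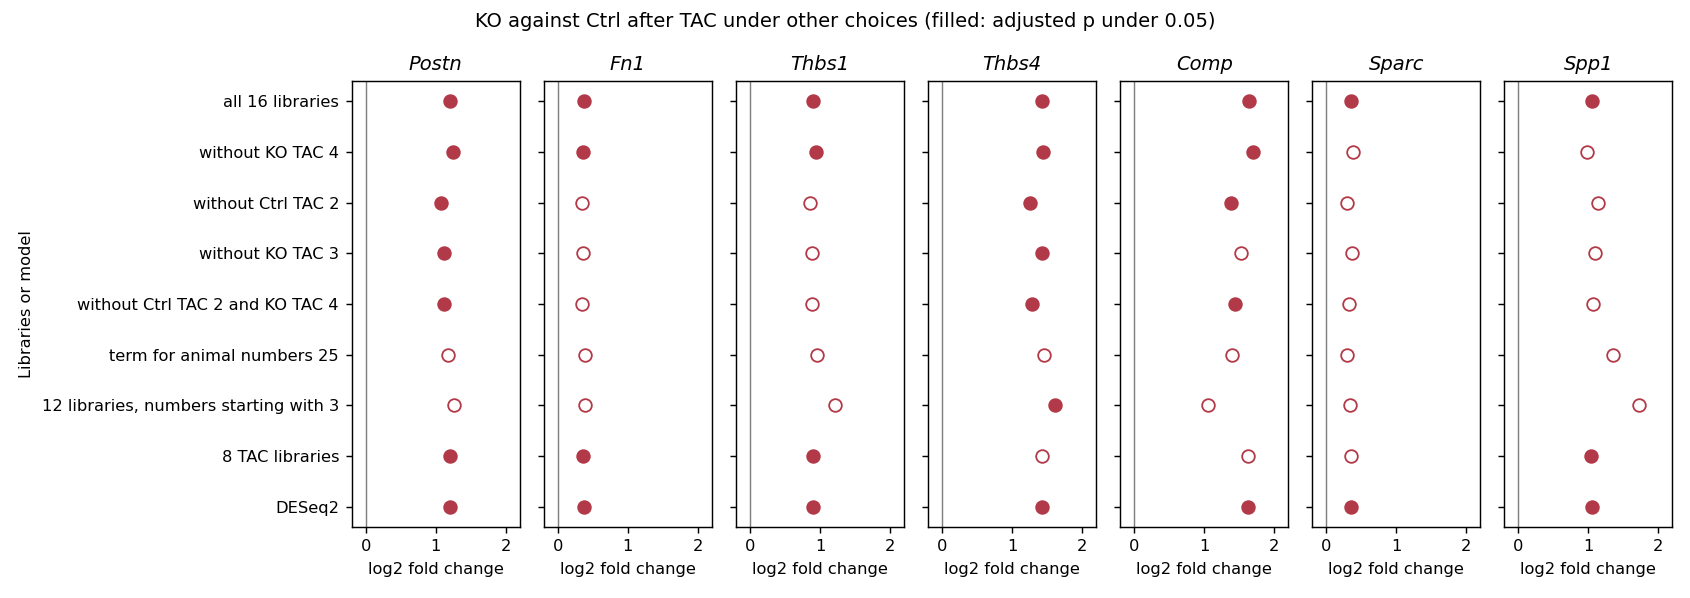
Log2 difference between KO TAC and Ctrl TAC hearts for the 7 called genes under 9 choices of libraries and model, with filled points where the adjusted p was under 0.05. Every point lies to the right of 0; Postn stays between 1.07 and 1.27 and Fn1 between 0.34 and 0.39, while the points with a term for the animal numbers are open for all 7.

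Without overload, the genotypes did not differ detectably. In sham hearts 0 members passed (edgeR), 0 had an unadjusted p under 0.05 and 0 passed by DESeq2. Of all genes 0% were called by edgeR, 2.62% had an unadjusted p under 0.05 and 0.0165% were called by DESeq2. The log2 differences of KO sham against Ctrl sham lay between -0.21 (Thbs2, interval -0.50 to 0.07) and 0.40 (Comp, interval -0.40 to 1.21). For Fn1 the interval of -0.28 to 0.03 leaves out a rise of the size seen after TAC, 0.37.

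The interaction of genotype and surgery, which tests whether the response to TAC itself differed between genotypes, was called for 0 members by edgeR, against 0.0109% of all genes. By the unadjusted p, 6 members were under 0.05, against 11.1% of all genes. The excess of the log2 response in KO hearts was 1.32 ± 0.26 for Postn (edgeR adjusted p = 0.142), 0.50 ± 0.10 for Fn1 (0.142), 1.44 ± 0.34 for Thbs4 (0.191), 1.17 ± 0.38 for Spp1 (0.267), 0.34 ± 0.13 for Sparc (0.347) and 1.23 ± 0.48 for Comp (0.367). DESeq2 called 3 of these, Postn (adjusted p = 0.00282), Fn1 (0.00604) and Thbs4 (0.0123), against 0.837% of the genes to which it gave an adjusted p. For Tnc the value was -0.06 ± 0.44 and for Thbs2 0.19 ± 0.19 (edgeR adjusted p = 0.978 and 0.761).

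The members did not all follow the same hearts within a group. Among the Ctrl TAC hearts, Ctrl TAC 4 was the highest for Postn, Fn1, Thbs1, Thbs4 and Sparc and Ctrl TAC 2 the lowest for Postn, Fn1, Thbs4, Comp and Sparc. Ctrl TAC 2 was at the same time the highest for Tnc and Spp1. Likewise the library labelled KO TAC 4 was the lowest of its group for Postn, Thbs1, Thbs3, Comp and Sparc and the highest for Tnc and Spp1. Ctrl sham 1 was the lowest of its group for 7 of the 10 members.

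The median spread between hearts over the members was smallest in KO TAC. The SD there was a median of 6.76% of the mean over the 10 members, against 23.1% in Ctrl TAC, 17.8% in Ctrl sham and 19.4% in KO sham hearts, and it was smaller in KO TAC than in Ctrl TAC hearts for 10 of 10 members. The Ctrl TAC spread was 42.3% for Thbs4 and 49.9% for Comp, and 6.38% and 15.9% in KO TAC hearts. For Tnc it was nearly the same in both, at 32.45% and 31.62%. Without the library labelled KO TAC 4 the median was 5.43%, and the spread was again the smaller one for 10 members. These spreads were compared as values, with no test, and were not set beside those of all genes.

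Other genes of the matrix and its signalling were counted in 3 lists. Of 22 other matricellular genes, 16 were expressed enough to be tested. In Ctrl hearts 9 of them rose after TAC and 0 fell, and in KO hearts 11 rose and 1 fell. The largest rises were those of Ccn5, Ccn2 and Fstl1, secreted proteins of the CCN and SPARC families, at log2 1.85, 1.84 and 1.60 in Ctrl and 3.00, 2.41 and 2.01 in KO hearts, and the gene that fell in KO hearts was Spock2 (-0.91). Of the 16, 3 were higher in KO TAC than in Ctrl TAC hearts, Ccn5 by 0.86 (edgeR adjusted p = 0.0296), the calcification inhibitor Mgp by 0.57 (0.0456) and Fstl1 by 0.44 (0.0232). The median log2 difference of the 16 was 0.19. Without the library labelled KO TAC 4, Ccn5 (0.97) and Fstl1 (0.44) passed again, Mgp did not (0.57, adjusted p = 0.0716, edgeR) and Sparcl1 did (0.25, adjusted p = 0.0419). With the term for the animal numbers 0 passed.

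Of 19 receptors that matricellular proteins bind, 11 rose and 2 fell after TAC in each genotype. Itga9, an integrin subunit that binds tenascin-C and osteopontin, rose most, by log2 1.06 in Ctrl and 1.18 in KO hearts. In Ctrl hearts the next were Cd44, which osteopontin binds, at 0.81 and Itgb8 at 0.78, and in KO hearts the integrin subunit Itgb3 at 0.96 and the syndecan Sdc1 at 0.94. The 2 that fell were Cd36 (-0.34 and -0.53) and Cd47 (-0.21 and -0.17), both receptors of thrombospondin-1. Without the library labelled KO TAC 4, 10 rose and 1 fell in KO hearts, since Cd44 (0.74, adjusted p = 0.0512, edgeR) and Cd47 (-0.15, adjusted p = 0.0520) did not pass. With the term for the animal numbers 8 rose and 1 fell in Ctrl hearts, and Cd47 (-0.15, adjusted p = 0.168, edgeR) was among those that did not pass. After TAC 1 receptor was higher in KO hearts, the syndecan Sdc4 (0.51, edgeR adjusted p = 0.0380), and the median difference of the list was 0.11. Sdc4 passed again when the library labelled KO TAC 4 was left out (0.56, adjusted p = 0.0374, edgeR), and 0 receptors passed with the term for the animal numbers.

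Of 14 genes of TGF-beta signalling and its processing, 6 rose and 2 fell in Ctrl hearts and 7 rose and 3 fell in KO hearts. Tgfb2, a ligand gene, rose by log2 0.99 and 1.63 and Tgfb3, another, by 0.67 and 1.10. Ltbp1, which tethers latent TGF-beta, fell (-0.44 and -0.53), as did the co-receptor Tgfbr3 (-0.43 and -0.52) and, in KO hearts, the protease gene Furin (-0.29). Of the 14, 1 was higher in KO TAC than in Ctrl TAC hearts, Tgfb3 (0.39, edgeR adjusted p = 0.0421), and it did not pass without the library labelled KO TAC 4 or with the term for the animal numbers. The median difference of the list was 0.13. With that term 4 genes rose and 2 fell after TAC in Ctrl hearts.

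Markers of other cell types were measured in the same libraries. The sums for fibroblasts, macrophages and cardiomyocytes moved with the groups, though not every marker did. The 8 fibroblast markers summed to 1248 to 1400 CPM in Ctrl sham, 1294 to 1353 in KO sham, 1375 to 1784 in Ctrl TAC and 1758 to 2044 CPM in KO TAC hearts. Gsn was the largest part of this sum, at means of 762, 755.2, 714.5 and 751.4 CPM. It did not pass after TAC in either genotype, nor did Dpt. Of the 8 fibroblast markers, 3 rose in Ctrl and 6 in KO hearts after TAC. The collagen gene Col1a2 was the 1 that was higher in KO TAC than in Ctrl TAC hearts (0.40, edgeR adjusted p = 0.0375). Col1a2 did not pass without the library labelled KO TAC 4 (0.42, adjusted p = 0.0507, edgeR) or with the term for the animal numbers (0.42, adjusted p = 0.135). Between the TAC groups Pdgfra and Tcf21, which mark resident fibroblasts, differed by 0.05 and 0.08 on the log2 scale (edgeR adjusted p = 0.852 and 0.819). Dcn, Lum and Col1a1 were higher in KO TAC by 0.40, 0.36 and 0.35 but did not pass (edgeR adjusted p = 0.0828, 0.274 and 0.0846). Gsn and Dpt differed by 0.07 and -0.03, and the median of the 8 was 0.21. The 9 macrophage markers summed to 174 to 233 CPM in Ctrl sham, 172 to 222 in KO sham, 242 to 302 in Ctrl TAC and 265 to 370 CPM in KO TAC hearts, and 0 of them passed between the TAC groups (edgeR). The 8 cardiomyocyte markers summed to 57060 to 65560, 58400 to 63830, 50440 to 54470 and 44630 to 46000 CPM in the same order. Myh6 was the largest part of this sum, at means of 24610, 23720, 20050 and 15340 CPM. After TAC 5 of the 8 fell in Ctrl and 6 in KO hearts, while Actc1 and Mb did not pass in either genotype. Of the 8, 2 were lower in KO TAC than in Ctrl TAC hearts, Myh6 and Ryr2. Both passed again without the library labelled KO TAC 4, and neither did with the term for the animal numbers (adjusted p = 0.102 and 0.113, edgeR). Of the 6 smooth muscle markers, Des, which cardiomyocytes also express, rose from 1355 to 2030 CPM in Ctrl and from 1374 to 2261 CPM in KO hearts. The other 5 summed to 243 to 277, 237 to 253, 180 to 236 and 204 to 231 CPM, with Smtn lower after TAC in both genotypes (-0.41 and -0.48) and Cnn1 higher (1.19 and 1.11). The 6 endothelial markers summed to 557 to 612, 554 to 672, 554 to 714 and 552 to 643 CPM, and 0 of them passed after TAC in Ctrl hearts and 1, Vwf, in KO hearts. The 5 markers of platelets, which store thrombospondin-1, summed to 8.69 to 9.99, 9.35 to 11.5, 8.53 to 12.4 and 10.97 to 13.2 CPM, and 1 passed after TAC in Ctrl hearts and 0 in KO hearts (edgeR). Without the library labelled KO TAC 4 the sums in KO TAC hearts were 1758 to 2044 CPM for fibroblast, 265 to 370 CPM for macrophage and 44630 to 45700 CPM for cardiomyocyte markers. The part of these changes in the results for the 10 members was not tested.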

How the data were processed

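Poly(A)-selected RNA of the heart apex was sequenced as paired reads of 150 bases. The submitters' processing notes name cutadapt 2.3, FastQC, HISAT2 2.1.0, edgeR 3.26.1 and build GRCm38. The values the authors deposited are whole-number counts of reads, not normalized, for each Ensembl gene in each of the 16 mice. The counting program, its annotation and its use of the strand are not given in the sources used here.

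Columns were matched to samples by the animal number in the titles. Replicates were numbered within a group in sample order, so the numbers pair nothing. Of 55487 gene identifiers, 55227 (99.5%) were found in GENCODE M21, from which names, positions and exon lengths were taken.

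Counts were filtered with filterByExpr, scaled by TMM and fitted in edgeR 4.0.16 (R 4.3.3) with 1 mean per group over all 16 libraries (glmQLFit with the robust option, glmQLFTest). Genes were called at a Benjamini-Hochberg adjusted p under 0.05 over all 18275 genes tested. The SE is the log2 fold change over the square root of F, and confidence intervals (95%) use the t distribution with the fit's degrees of freedom. The fit was tested on simulated counts with known changes in KO TAC. They held no effect of the animal numbers and no library unlike its label, so that test says nothing of either. A lower count limits the precision, as does the spread between hearts. The SE was largest for Comp in each comparison, at 0.31 for KO against Ctrl after TAC, beside 0.28 for Tnc and 0.24 for Spp1. P values set each difference against the spread between mice within groups, estimated over all 16 libraries. Among TAC hearts they do not separate genotype from the nearly aligned animal numbers.

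All 10 members are named. Of each list of related genes, up to 3 called genes with the largest rise and 3 with the largest fall per comparison are named. Marker genes, and listed genes whose call changed with a setting, were named after their values were seen. The members and lists were chosen with earlier results of these data known. Alternatives were DESeq2 1.42.0, DESeq2 size factors, other filters on low counts, a threshold of 0.01, terms for the animal numbers, subsets of libraries and leaving out each library. The values of 1 gene counted in a pathway list are not reported here.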

Additional observations from a re-analysis of the deposited data

Results flagged for a closer look

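In 44 sets of 4 libraries (the 10 members and Cardinal in 4 groups), 5 held a library that stood apart from the other 3 past Dixon's critical value for the gap over the range, which chance passes in about 1 of 20 sets. Thbs1 was at 2.06 CPM in Ctrl sham 1, below the other Ctrl sham hearts. Tnc was at 6.38 CPM in Ctrl TAC 2, above the other Ctrl TAC hearts, and Spp1 at 0.493 CPM in Ctrl TAC 1, below them. Cardinal was at 8.02 CPM in Ctrl TAC 1, above the other Ctrl TAC hearts, and at 4.54 CPM in the library labelled KO TAC 4, against at most 0.371 CPM in the other KO TAC hearts.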

How the results depend on the processing

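No paired analysis was possible because the labels give the animals no shared replicate numbers. For TAC against sham, the 10 members kept their direction and call under every alternative in KO hearts, and in Ctrl hearts under every alternative except Spp1 in the 2 settings given above. KO against Ctrl after TAC depended most on the processing. Of its 7 calls, 0 were left at an adjusted p under 0.01, 0 with a term for the animal numbers starting with 25, 4 with the 8 libraries of the 2 TAC groups, 1 (Thbs4) with the 12 libraries whose numbers start with 3 and 3 without Ctrl TAC 2 and KO TAC 4 together. Leaving out 1 library gave 2 to 7 calls, with 3 without Ctrl TAC 2, 4 without Ctrl TAC 3 and 2 without KO TAC 3. The 12 libraries leave Ctrl TAC 1 alone in its group, and that fit assumes it varies like the others. For these calls the cause was not tested, and the shares of all genes called in these refits were not set beside them. The interaction was called for 0 members, 3 by DESeq2, 1 (Thbs4) in the 12 libraries and 0 to 2 when 1 library was left out (Fn1 without Ctrl sham 1, Postn and Thbs4 without Ctrl TAC 4).

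Changes of sign were seen only among values that were not called under any alternative. With a term for the numbers starting with 33, log2 differences in sham hearts were -0.0885 for Thbs3, -0.0662 for Tnc, -0.13 for Sparc and 0.0482 for Spp1. The interaction of Tnc was 0.23 with the term for 25, 0.14 with that for 33 and 0.0653 in the 12 libraries. When 1 library was left out, KO against Ctrl after TAC ranged from -0.12 to 0.11 for Thbs2 and from -0.17 to 0.32 for Tnc, and the interaction of Tnc from -0.30 to 0.20. In sham hearts the ranges were -0.23 to 0.0276 for Postn, -0.021 to 0.14 for Thbs3, -0.13 to 0.10 for Thbs4, -0.0565 to 0.37 for Tnc, -0.0509 to 0.10 for Sparc and -0.31 to 0.15 for Spp1.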
